A study of Saccharomyces cerevisiae with 24 samples.

Results

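The genes described here encode the proteins of the cytosolic ribosome of Saccharomyces cerevisiae. They were taken as every gene whose symbol is RPL or RPS followed by a digit, with the A and B copies of a pair kept apart and probe sets that match several genes left out. On the arrays of strain L51 this gave 122 of 5449 genes, 70 of the large subunit (RPL) and 52 of the small subunit (RPS), among them 48 complete pairs of copies and 17 proteins with a single gene. On the arrays of strain MHY100 it gave 75 of 5656 genes, 42 of the large and 33 of the small subunit, with 29 complete pairs. A total of 74 genes were measured on both array types, and 9 of the 132 such symbols in RefSeq were measured on neither.

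The small subunit of the ribosome reads the mRNA and the large subunit joins the amino acids. In yeast the genes of these proteins are among the most strongly transcribed, and most of them exist as a pair of nearly identical copies left from an ancient duplication of the genome. They are known to be transcribed together, through Rap1 and through Fhl1 with its coactivator Ifh1, under the control of the TOR and protein kinase A pathways, and their mRNAs are known to decrease together when growth slows.

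The arrays come from a study of the oxygen regulatory network of yeast, which changed oxygen, heme, cobalt and the heme-responsive activator Hap1. Both strains are MATa. L51 cells all have the disruption hap1::LEU2, together with trp1::HisG, ade1-100 and his4-519, and also leu2-3, 112 and ura3-52. Their centromeric plasmid either carries HAP1 (called HAP1 cells) or is empty (called Δhap1 cells). The 18 arrays cover HAP1 cells in air, after 1.5 h and after 6 h of anaerobic growth, and in aerobic growth with cobalt chloride at 400 µM for 6 h, as well as Δhap1 cells in air and after 6 h of anaerobic growth, with 3 arrays per condition. MHY100 cells share the ura3, leu2, his4 and ade1 alleles, lack HEM1 (hem1-delta100) and so make heme only from added 5-aminolevulinate, with 3 arrays at 2.5 µg/ml, called heme-deficient, and 3 at 250 µg/ml, called heme-sufficient. The HAP1 gene of L51 cells is therefore a plasmid copy in a disrupted strain, and every heme comparison is between 2 supplies of a heme precursor. For the cobalt arrays the title and the source name give the HAP1 plasmid and the description gives the empty vector. HAP1 signal on them was 10.46, 10.23 and 10.98 on the log2 scale, above every Δhap1 array. The paper notes that a replicate was made in a different strain without saying which, while all labels name L51, and its part in these results was not tested.

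The values are log2 of intensities that the authors computed with RMA, so a difference of 1 is a doubling. HAP1 probe signal was 9.96 ± 0.31 (SD, n = 3) in aerobic HAP1 cells and 6.01 ± 0.18 in aerobic Δhap1 cells, and in Δhap1 cells at 6 h it was 6.12 ± 0.42. ANB1, a hypoxic gene, stood at 9.02 on 1.5 h replicate 3 and at 14.14 and 13.41 on the other 1.5 h arrays, beside 9.63 to 10.46 in aerobic HAP1 cells. It stood at 12.22 on cobalt replicate 3 and at 9.64 and 9.49 on the other cobalt arrays. Between 66.2% and 94.1% of S. cerevisiae genes per array lay above the 95th percentile of probe sets for another yeast. The lowest share was that of Δhap1 6 h replicate 3, followed by aerobic HAP1 replicate 2 with 67.6%. Intensities have no read depth, and the number of arrays limits the precision. Per the study's methods the replicates came from cells grown independently. By their recorded hybridization times the L51 arrays fell into 6 rounds, and no round held arrays of different replicate numbers. All 6 h arrays, of HAP1 and Δhap1 cells, were hybridized in other rounds than all aerobic arrays. A difference between 6 h and air therefore cannot be told apart from one between those rounds. At 1.5 h only replicate 2 shared a round with the 6 h arrays.

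Ribosomal protein mRNAs gave some of the brightest signals on the arrays, which bears on how far a change could be seen. Of the 122 genes on the L51 arrays, 62 had a mean log2 intensity above 14, where the brightest probe set of any array lay between 14.89 and 15.06, and 5 lay under 12. The genes above 14 varied less between replicate arrays (median SD 0.15) than the other 60 (median SD 0.44). On the MHY100 arrays 6 of 75 genes had a mean above 14 and 39 lay under 12. Near-identical copies can share probe signal: 23 of the 122 and 30 of the 75 probe sets are of a type whose name marks probes that can match more than 1 transcript.

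Between replicate arrays of a condition the ribosomal protein genes had a smaller spread than most genes on the L51 arrays, but 62 of them lay above 14, where the spread is small. Their median within-condition SD was 0.25 against 0.51 for all genes, and 25 of them (20.5%) had an SD over 0.5 against 52.1% of all genes. On the MHY100 arrays the median was 0.19 against 0.24, and 7 genes (9.33%) against 8.17% of all genes had an SD over 0.5. The lowest SDs on the L51 arrays were those of RPL18B (0.04), RPL30 (0.04), which encodes a protein that represses the splicing of its own transcript, and RPS2 (0.05). Their mean log2 intensities of 14.31, 14.43 and 14.53 lie near the brightest probe sets, and the median SD of the 60 members at or under 14 was 0.44, closer to that of all genes. RPL18B has a second, dimmer probe set. Between air and 6 h in Δhap1 cells that one differed by -0.79 and the one used here by 0.01. Their spread of 0.80 was the largest among 20 members with several probe sets, where the median was 0.095.

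The genes that varied most were RPL39 (SD 1.67), RPL41A (1.42), RPS10B (1.36), RPS28A (1.27) and RPS22B (1.11). RPL39, RPL41 and RPS28 encode some of the shortest proteins of the yeast ribosome. RPL39 (YJL189W) measured 13.66, 8.50 and 13.65 on the aerobic HAP1 arrays, 13.55, 9.81 and 13.36 at 1.5 h, and 13.26, 13.37 and 13.45 with cobalt. It measured 13.81, 11.14 and 13.58 in aerobic Δhap1 cells, and 12.96, 11.86 and 13.34 in Δhap1 cells at 6 h. Replicate 2 was the low array of each condition, 6 h in HAP1 cells included, but cobalt, where no array was low. RPS10B (YMR230W), whose protein lies on the head of the small subunit, measured 12.63, 9.09 and 12.46 in aerobic HAP1 cells, and its 1.5 h values were 12.81, 9.32 and 12.46. The low array is again replicate 2 of both conditions. A single axis held 81.4% of the variance of the members over the 18 arrays, and its lowest scores belonged to aerobic HAP1 replicate 2 and 1.5 h replicate 2. In 5 of 6 conditions the lowest score was that of replicate 2.

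Some of these genes also varied most in the other strain and on the other array type. The 15 largest within-condition SDs of each table shared 6 genes: RPL39, RPS10A, RPS10B, RPS27A, RPS28A and RPS28B. RPS22A and RPS0A, with ranks of 8 and 13 on the L51 arrays, ranked 34 and 61 of 75 on the MHY100 arrays, and RPL41A was not measured there. Across the 74 genes on both tables the SDs had a Pearson r of 0.71 and a Spearman rho of 0.54, where the points of each table share its arrays. On the MHY100 arrays the first axis held 88.1% of the variance and its lowest score was heme-deficient replicate 1. The median log2 intensity of the members was 11.54 on that array and 11.93 to 12.22 on the other 5, and on the L51 arrays it ran from 13.58 (aerobic HAP1 replicate 2) to 14.19. The ACT1 control signal at the 3′ end over that at the 5′ end, a sign of RNA quality, was 1.42 on aerobic HAP1 replicate 2 within a range of 1.29 to 1.60, and 2.35 on heme-deficient replicate 1 within 2.05 to 2.54. The paper says that it replaced arrays whose β-actin ratio of this kind exceeded 2. All MHY100 arrays exceed 2 by the ratio taken here from the deposited intensities. The part of array quality in these spreads was not tested.

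**Figure D1:**
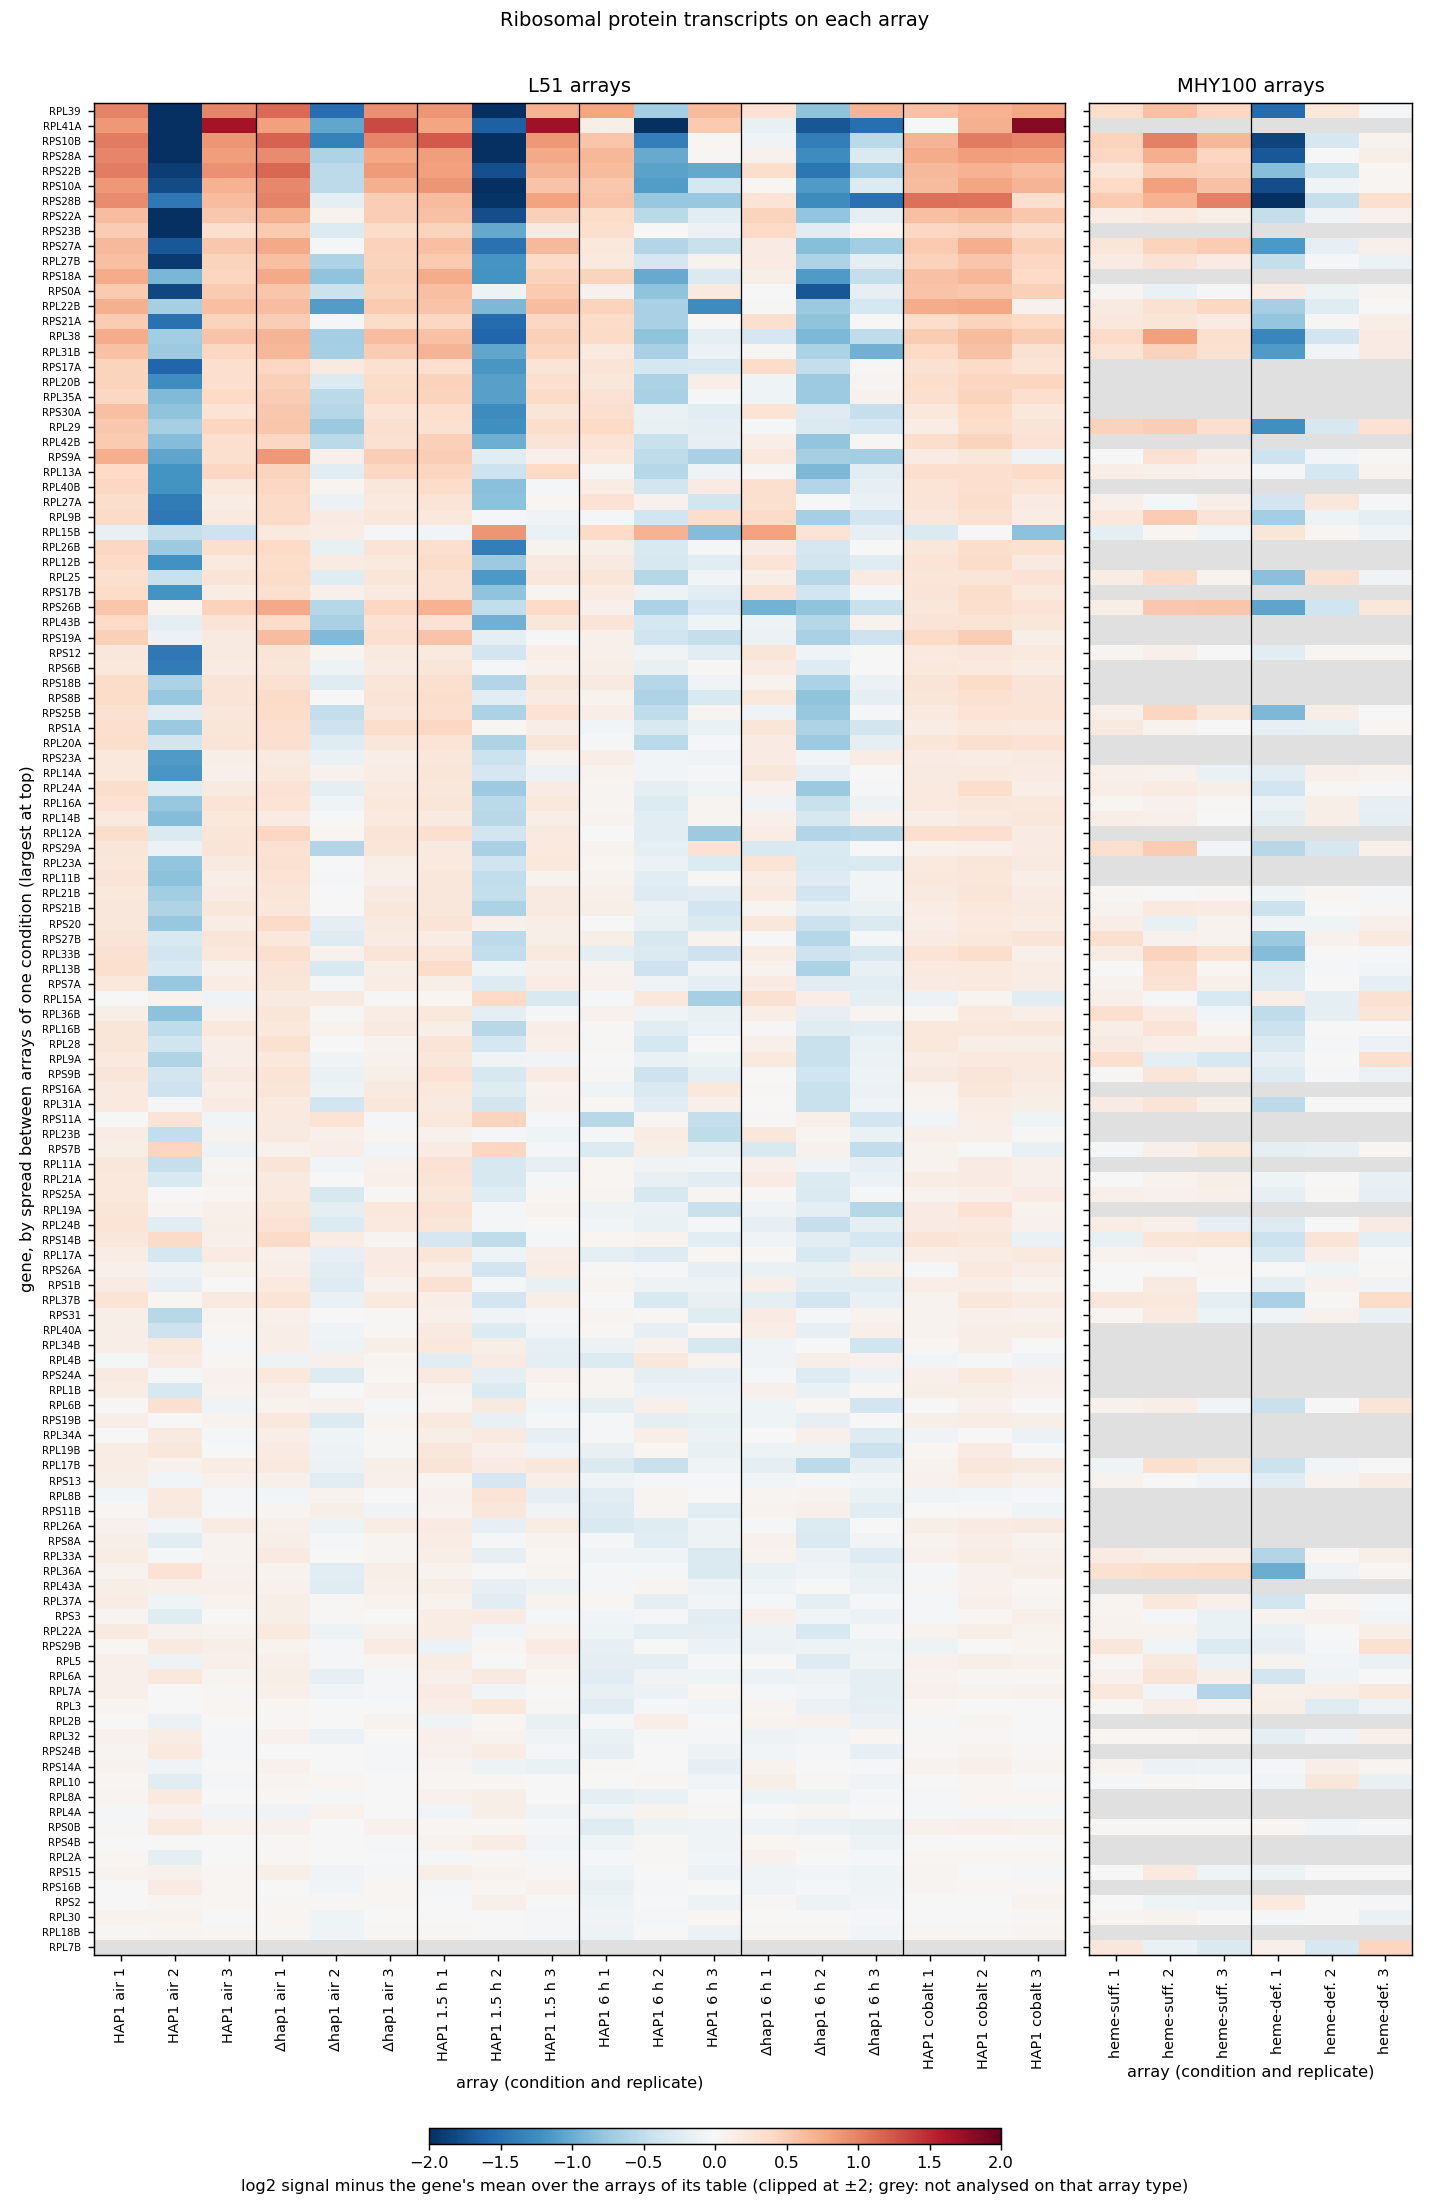
Log2 intensity of each ribosomal protein gene (rows) on each of the 24 arrays (columns, 18 of L51 and 6 of MHY100), minus the gene's mean over its table and clipped at 2 either way, sorted by within-condition SD, with grey where a gene was not analysed on that array type. The top rows, led by RPL39, RPL41A and RPS10B, are low on aerobic HAP1 replicate 2 and 1.5 h replicate 2, and heme-deficient replicate 1 is low across many genes of the MHY100 table.

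No ribosomal protein gene passed the test for the deletion of HAP1 in air. The median difference between Δhap1 and HAP1 cells was 0.07 on the log2 scale over the 122 members and 0.11 over all genes. By limma with Benjamini-Hochberg adjustment over all genes, 0 members were called beside 0.0184% of all genes, and 0 members against 1.39% of genes had an unadjusted p under 0.05. For 98 members (80.3%) the 95% confidence interval lay within a 2-fold change either way, against 61.2% of all genes. The largest values were those of RPL39 (0.91), RPS23B and RPS22A, which were low on aerobic HAP1 replicate 2. The median of the members was -0.02 without that array.

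After 1.5 h without oxygen the ribosomal protein genes lay close to their aerobic levels on average, and none passed the test. Their median difference was -0.00 on the log2 scale beside 0.14 for all genes, and their median size of change was 0.08 beside 0.33. No member passed the test and 0.0367% of all genes did, and at an unadjusted p under 0.05 there was 1 member against 15.7% of genes. That member was RPS14B (YJL191W), a small subunit gene whose transcript is known to be repressed by its own protein. Its log2 intensity was 13.37, 13.52 and 13.24 in air and 12.80, 12.63 and 13.11 at 1.5 h, so every 1.5 h array lay below every aerobic array. The fitted difference was -0.53 (SE 0.19, adjusted p = 0.266), and the other copy, RPS14A, differed by -0.06. Leaving out aerobic HAP1 replicate 2 placed 95 of 122 members (77.9%) below zero with a median of -0.09, against 48.0% of all genes. It was 63 members (51.6%) against 38.6% with that array. ANB1 stood near its aerobic level on 1.5 h replicate 3. Without the 1.5 h, cobalt and 6 h HAP1 arrays of replicate 3 there were 59 members (48.4%) below zero, against 46.4% of all genes.

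After 6 h without oxygen most ribosomal protein genes of HAP1 cells measured slightly lower than in air, and none passed the test. The median was -0.10 for the members and -0.10 for all genes, and 89 members (73.0%) were lower on average against 58.7% of genes. None of the 122 was called by limma against 2.15% of all genes, and 3 members had an unadjusted p under 0.05 against 17.1%. In 18 members (14.8%) the 6 h arrays lay wholly below the aerobic arrays against 7.62% of genes, and in 0 members wholly above, against 4.11%. Without aerobic HAP1 replicate 2, 119 of 122 members (97.5%) were lower, against 66.4% of genes, with a median of -0.20.

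The 3 members were RPS26B, RPL17B and RPS11A. RPS26B (YER131W) encodes a protein near the exit of the mRNA channel of the small subunit. It measured 14.02, 13.51 and 13.92 in aerobic HAP1 cells and 13.56, 12.83 and 13.13 at 6 h, a fitted difference of -0.64 (SE 0.27, adjusted p = 0.252). Only the highest 6 h array reached above the lowest aerobic array. RPL17B (YJL177W), of the large subunit around the peptide exit tunnel, measured 13.68, 13.62 and 13.69 in air and 13.25, 13.08 and 13.44 at 6 h, and all 6 h arrays lay below all aerobic arrays. Its difference was -0.40 (SE 0.16, adjusted p = 0.221). RPS11A (YDR025W), of the body of the small subunit, measured 13.98, 14.24 and 13.93 in air and 13.43, 14.03 and 13.50 at 6 h, where the replicate 2 arrays were the highest of each group and the groups overlapped.

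Between 1.5 h and 6 h the ribosomal protein genes moved little. No member differed by 2-fold or more, whereas 17.5% of all genes did, and for 108 members (88.5%) the 95% confidence interval lay within 2-fold against 35.8% of genes. The median size of change was 0.12 against 0.47. A single member fell, RPS11A, beside 15.3% of all genes called (11.7% lower), and 2 members against 33.7% of genes had an unadjusted p under 0.05. RPS11A measured 14.19, 14.42 and 13.96 at 1.5 h and fell by 0.54 on the log2 scale to 6 h (SE 0.16, adjusted p = 0.0437). The lowest 1.5 h array lay below the highest 6 h array. RPL17B measured 13.80, 13.70 and 13.77 at 1.5 h, above all 3 arrays of 6 h, and its difference of -0.50 (SE 0.16) had an adjusted p of 0.0511. Without the replicate block 0 genes of any kind were called, against 832 with it, the adjusted p of RPS11A was 0.181, and without the arrays of replicate 1, 2 or 3 it was 0.503, 0.149 and 0.0821.

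In Δhap1 cells nearly all ribosomal protein genes measured lower at 6 h without oxygen than in air. Against aerobic Δhap1 cells 114 of 122 members (93.4%) were lower on average, beside 69.8% of all genes, and the median was -0.20 for the members and -0.30 for all genes. RPS26B fell, alone among the members (0.82%, beside 10.9% of all genes called and 8.64% called lower), and 11 members against 30.6% of genes had an unadjusted p under 0.05. All 11 were lower at 6 h. Without the replicate block 47 genes were called against 593 with it, and 0 members. The 6 h and aerobic arrays were of different hybridization rounds, and with the round as the block 0 members were called. Without Δhap1 6 h replicate 3, the array with the smallest share of genes above background, 108 members (88.5%) were lower against 63.2% of genes, with a median of -0.16.

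RPS26B had the lowest adjusted p of the members in any comparison. Its log2 intensity was 14.22, 12.90 and 13.88 in aerobic Δhap1 cells and 12.52, 12.66 and 13.01 in Δhap1 cells at 6 h. All but the highest 6 h array lay below the whole aerobic group, and that array lay above only aerobic replicate 2. The fitted fall was 1.91-fold (log2 difference -0.93, SE 0.27, adjusted p = 0.0456). Against aerobic HAP1 cells, the reference the study used, all 3 arrays lay below all 3 aerobic ones, and RPS26B fell 2.12-fold (log2 difference -1.08, SE 0.27, adjusted p = 0.0316). No other member was called there, beside 7.05% of all genes (4.61% lower), and 8 members against 24.7% of genes had an unadjusted p under 0.05. The adjusted p within Δhap1 cells was 0.222 without the replicate block, 0.395 and 0.244 without the arrays of replicate 1 and 3, and 0.131 without Δhap1 6 h replicate 3 alone. Against aerobic HAP1 cells it was 0.155, 0.324, 0.153 and 0.0879, with a log2 difference between -0.65 and -1.20 over all alternatives.

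The other members with an unadjusted p under 0.05 within Δhap1 cells did not pass the adjusted test. RPS9A (YPL081W), whose protein binds early in assembly of the small subunit, measured 12.43, 11.66 and 12.06 in air and 11.77, 10.90 and 10.87 at 6 h, with an overlap of a single array from each group. Its difference was -0.87 (SE 0.29, adjusted p = 0.0703), the nearest to the threshold. The sizes of the others ran from -0.37 (RPL17B) and -0.41 (RPS14B) to -1.26 (RPS28B) and -1.49 (RPL41A). Bright genes showed less of the shift, with a median of -0.12 over the 62 members above a mean of 14 and -0.34 over the other 60.

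**Figure D2:**
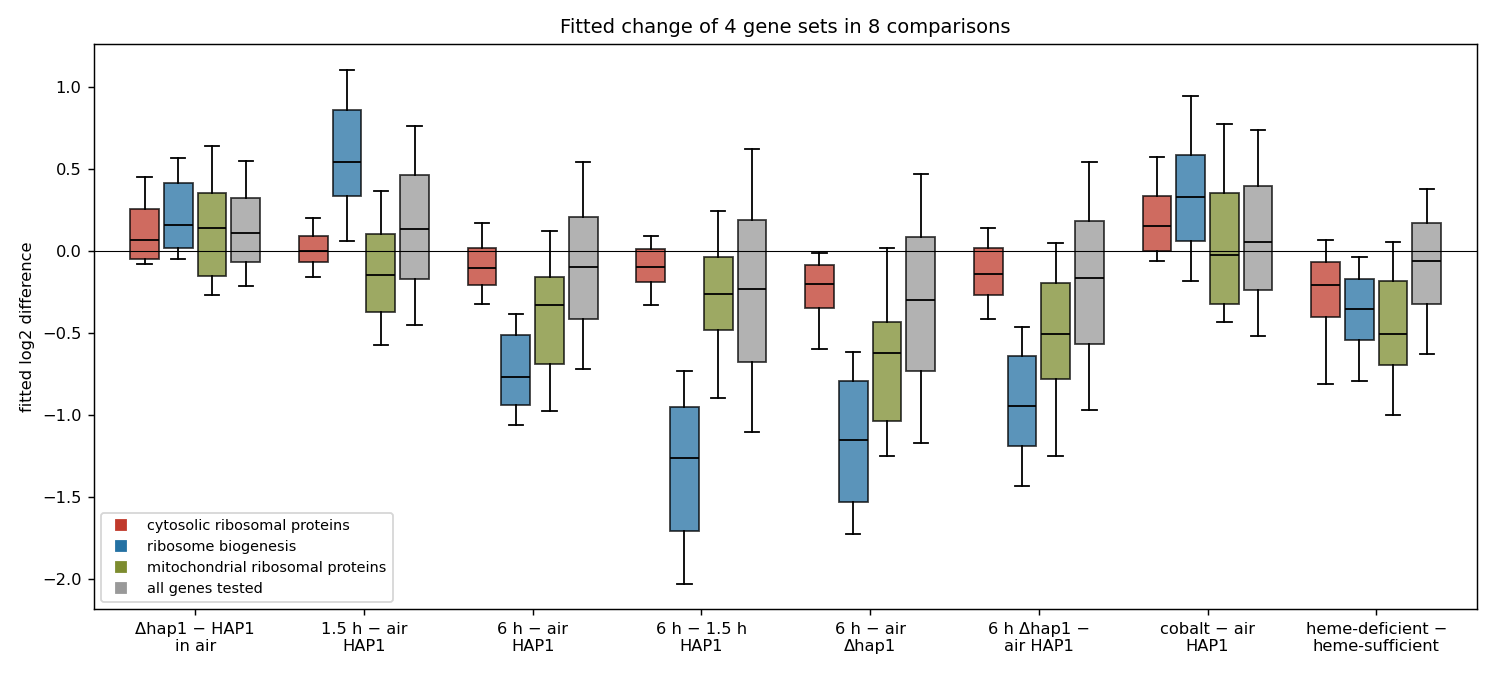
Fitted log2 differences of 4 gene sets (cytosolic ribosomal proteins, ribosome biogenesis, mitochondrial ribosomal proteins and all genes) in 8 comparisons, as boxes from the lower to the upper quartile with the median as a line and whiskers from the 10th to the 90th percentile. The boxes of the 122 ribosomal protein genes are narrow and near 0 in each L51 comparison, with medians between -0.20 and 0.15, while ribosome biogenesis genes shift to a median of -1.26 between 1.5 h and 6 h.

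Whether the 6 h change differed between Δhap1 and HAP1 cells was tested within the same fit. The median difference of the 2 changes was -0.09 over the members and -0.21 over all genes, and limma called 0 members and 0 genes (0.0%), with 0 members and 1.74% of genes at an unadjusted p under 0.05. For 87 members (71.3%) the interval lay within 2-fold, against 27.2% of genes. For RPS26B the difference of changes was -0.29 (95% interval -1.11 to 0.54). Without aerobic HAP1 replicate 2 the median over the members was -0.00. The number of low members in Δhap1 cells was therefore not shown to depend on HAP1.

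With cobalt no ribosomal protein gene was called, and the sign of the members' median rested on the replicate 2 arrays. The members' median was 0.15 beside 0.05 for all genes, 33 members (27.0%) lay below zero against 44.7% of genes, and limma called 0 members beside 0.147% of all genes. At an unadjusted p under 0.05 there were 1 member and 10.2% of genes. That member was RPS0A (YGR214W), of the small subunit, which measured 13.86, 11.51 and 13.85 in aerobic HAP1 cells and 13.90, 13.87 and 13.81 with cobalt. A single aerobic array, replicate 2, was low and the remaining arrays overlapped. The difference was 0.79 (SE 0.36, adjusted p = 0.472). Without the replicate 2 arrays of both groups the median was -0.04 over the members and -0.11 over all genes. There 101 of 122 members (82.8%) were lower against 68.4% of genes. Without cobalt replicate 2 alone the members' median was 0.01. Without aerobic HAP1 replicate 2 alone it was 0.06 beside -0.03 for all genes, with 31 members (25.4%) lower against 54.7% of genes. The members' cobalt arrays were close to each other, with a median log2 intensity of 14.11, 14.16 and 14.12.

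Heme deficiency was accompanied by lower signal of most ribosomal protein genes in MHY100 cells, with no gene past the test. Of 75 members 62 (82.7%) were lower on average in heme-deficient cells, against 57.0% of all genes, and the median was -0.21 beside -0.06. Limma called 0 members beside 1.64% of all genes, and 15 members against 18.7% of genes had an unadjusted p under 0.05, all of them lower. In 30 members (40.0%) all heme-deficient arrays lay below all heme-sufficient arrays, against 16.7% of genes, and in 0 members above, against 7.9%. Heme-deficient replicate 1 was the lowest array for the members, and without it 56 (74.7%) were lower against 58.1% of genes, with a median of -0.13.

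The largest values belonged to small-subunit genes of which both copies were low. RPS28B (YLR264W) measured 9.32, 10.94 and 11.71 in heme-deficient and 11.91, 12.09 and 12.41 in heme-sufficient cells. RPS10B measured 8.68, 10.18 and 10.58 against 10.97, 11.53 and 11.18. For both genes the groups did not overlap, and heme-deficient replicate 1 lay farthest from the rest. Their differences were -1.48 (SE 0.53, adjusted p = 0.225) and -1.41 (SE 0.45, adjusted p = 0.199), beside -1.05 for RPS28A and -1.20 for RPS10A. The probe sets of these RPS28 and RPS10 copies are all of types that can match more than 1 transcript. The low values of both copies are therefore not separate observations. A second probe set gave -1.39 for RPS28B, -0.88 for RPS10B, -1.19 for RPS28A and -1.39 for RPS10A. RPS22B (YLR367W), whose intron-bearing transcript is known to be cut and degraded by the RNase III enzyme Rnt1, had the lowest p of the members. It measured 10.53, 10.98 and 11.42 in heme-deficient and 11.62, 11.88 and 11.85 in heme-sufficient cells, again without overlap, a difference of -0.81 (SE 0.23, adjusted p = 0.168).

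Large-subunit genes with an unadjusted p under 0.05 were RPL38 (-1.02), RPL29 (-0.84), RPL36A (-0.69), RPL9B (-0.65), RPL33B (-0.61), RPL22B (-0.60) and RPL27B (-0.41). None of them passed the adjusted test. On the other side of zero the highest values were those of RPL7A (0.29), RPL15A (0.16) and RPL15B (0.14). RPL7A measured 13.28, 13.33 and 13.39 in heme-deficient and 13.40, 13.13 and 12.61 in heme-sufficient cells, and its value of 0.29 rested on the low heme-sufficient replicate 3.

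The 74 genes measured in both strains took similar places in the heme comparison and in Δhap1 cells at 6 h, which share no array. Across these genes the 2 differences had a Pearson r of 0.73 and a Spearman rho of 0.65, against an r of 0.43 across 5240 genes. The points of each axis share that comparison's 6 arrays. In 60 members (81.1%) both values were below zero against 47.3% of all genes. Without heme-deficient replicate 1 and the replicate 2 arrays of L51 the r was 0.78 against 0.35 across all genes, and 55 members (74.3%) against 46.3% of all genes were low in both. Set against the 6 h change of HAP1 cells, the heme differences had an r of 0.15 with all arrays, against 0.46 across all genes, and 0.65 without those arrays, against 0.50. Some of the genes with a large spread between replicates, among them RPS28B and RPS10B, also lie farthest from 0 on both axes. RPL39, with the largest SD on the L51 arrays (1.67), lies nearer 0 on the axis of Δhap1 cells. The part of the spread between replicates was not tested.

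**Figure D3:**
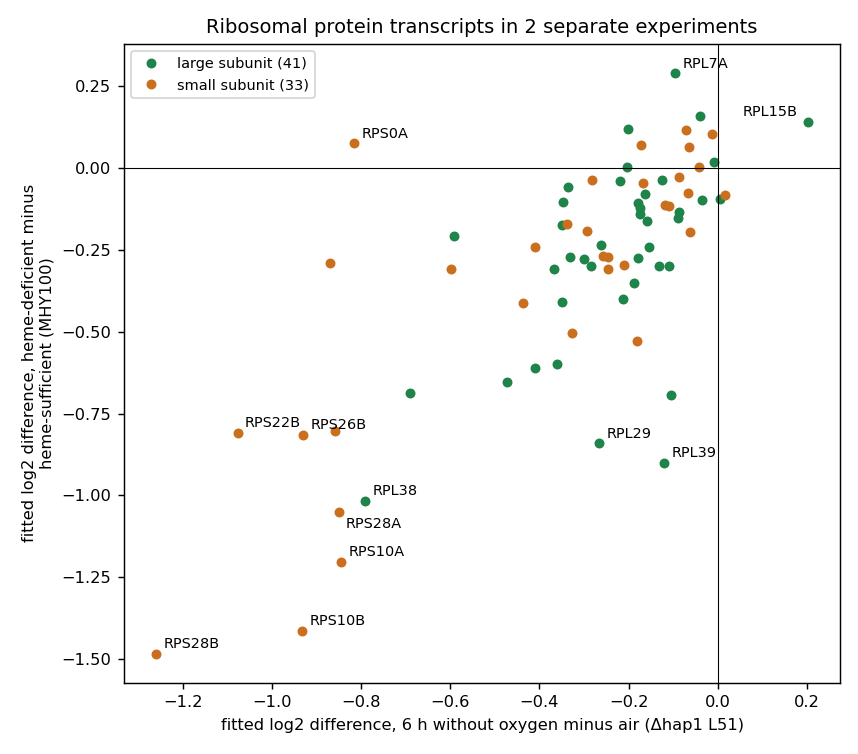
Fitted log2 difference in heme deficiency (vertical axis) against that of Δhap1 cells between air and 6 h without oxygen (horizontal axis) for the 41 large-subunit and 33 small-subunit genes on both array types. Most points, 60 of 74, lie at the lower left, and RPS28B (-1.26 and -1.48) and RPS10B (-0.93 and -1.41) lie farthest out.

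Whether the members moved less or more than other genes in the same direction depended on the scaling. As deposited, the median of all genes was -0.30 within Δhap1 cells at 6 h and -0.23 between 1.5 h and 6 h, and with quantile scaling it was -0.03 in both. The members' median minus that of all genes was 0.10 as deposited, -0.14 with quantile scaling and -0.09 with cyclic loess within Δhap1 cells. It was 0.13, -0.06 and -0.12 between 1.5 h and 6 h. In heme deficiency it was below zero with each of the 3, at -0.15, -0.19 and -0.18. With cobalt it was above zero with each, at 0.10, 0.15 and 0.13. As deposited but without the replicate 2 arrays, the members' median was -0.04 and that of all genes -0.11.

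The gaps between the changes of A and B copies were mostly small, but of about the size of the changes themselves. Over 48 pairs the median size of the difference between the copies' changes ran from 0.10 (1.5 h) to 0.19 (Δhap1 cells at 6 h) on the L51 arrays, and over 29 pairs it was 0.21 in heme deficiency. The median size of the members' own changes was 0.08 at 1.5 h, 0.20 within Δhap1 cells at 6 h and 0.24 in heme deficiency. Copies of a pair can share probe signal, and how far this makes them look alike was not tested.

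The RPS26 pair stood apart in several comparisons. RPS26A (YGL189C) measured 14.14, 13.79 and 14.18 in aerobic Δhap1 cells and 13.86, 13.85 and 14.12 at 6 h, and in HAP1 cells 14.11, 13.91 and 14.08 in air. These groups overlapped, and its fitted differences lay between -0.09 and 0.07 in every L51 comparison. RPS26A thus differed by -0.09 where RPS26B fell by 0.93 and by 1.08. The gap between the copies' changes, A minus B, was 0.84 within Δhap1 cells, 1.00 against aerobic HAP1 cells, 0.55 in HAP1 cells at 6 h and 0.46 between 1.5 h and 6 h. In heme deficiency it was 0.79, where RPS26B measured 8.41, 9.07 and 9.69 against 9.60, 10.00 and 10.01 and differed by -0.81 (adjusted p = 0.234), and RPS26A by -0.03. RPS26A lay between 14.47 and 14.59 on the 6 MHY100 arrays, near their brightest probe set (14.70 to 14.90). Both RPS26 probe sets of the L51 arrays are of the type named as matching a single transcript, and the gap between copies was not tested.

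**Figure D4:**
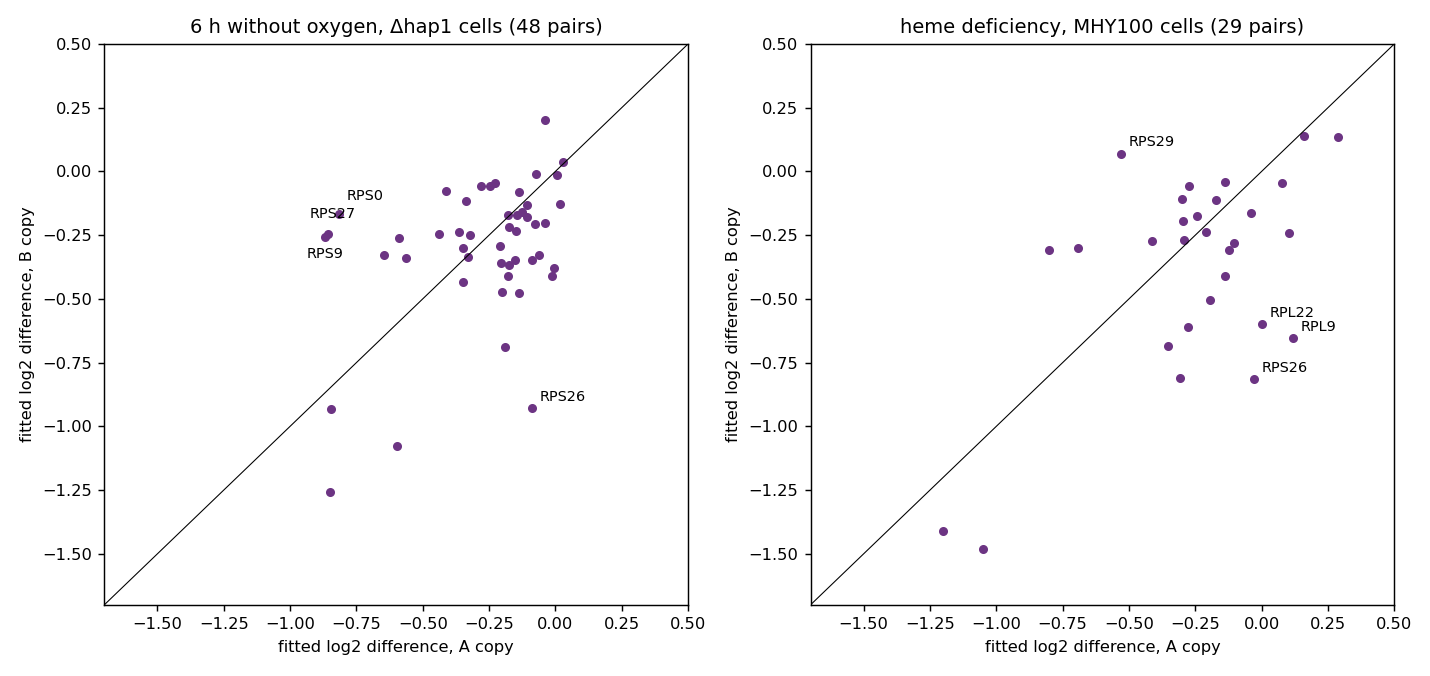
Change of the B copy against change of the A copy for each pair of ribosomal protein genes, as fitted log2 differences, in Δhap1 cells between air and 6 h without oxygen (48 pairs) and in heme deficiency (29 pairs), with a line of equal change and the 4 pairs that differ most labelled. The RPS26 pair lies below the line in both, with A near 0 (-0.09 and -0.03) and B at -0.93 and -0.81.

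Other pairs parted in fewer comparisons. In heme deficiency RPL9A measured 8.78, 8.95 and 9.28 against 9.27, 8.76 and 8.62, with overlap, and RPL9B 9.93, 10.51 and 10.42 against 10.83, 11.13 and 10.87, without, a gap of 0.77. RPL22B, the copy whose transcript is known to be held back by its own protein at splicing, measured 7.12, 7.54 and 7.80 against 7.96, 8.09 and 8.20, and RPL22A lay between 13.02 and 13.30 on both sides, a gap of 0.60. RPL22B was lower on every heme-deficient array and RPL22A showed no such separation. The gaps of RPS0 (0.68 at 1.5 h and 0.80 with cobalt) rested on aerobic HAP1 replicate 2, where RPS0A was low, and were 0.13 and 0.25 without that array. RPS22A was low there too, at 13.77, 10.50 and 13.69 in aerobic HAP1 cells, and the gap of RPS22 in HAP1 cells at 6 h was 0.86 with that array and 0.61 without.

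**Figure D5:**
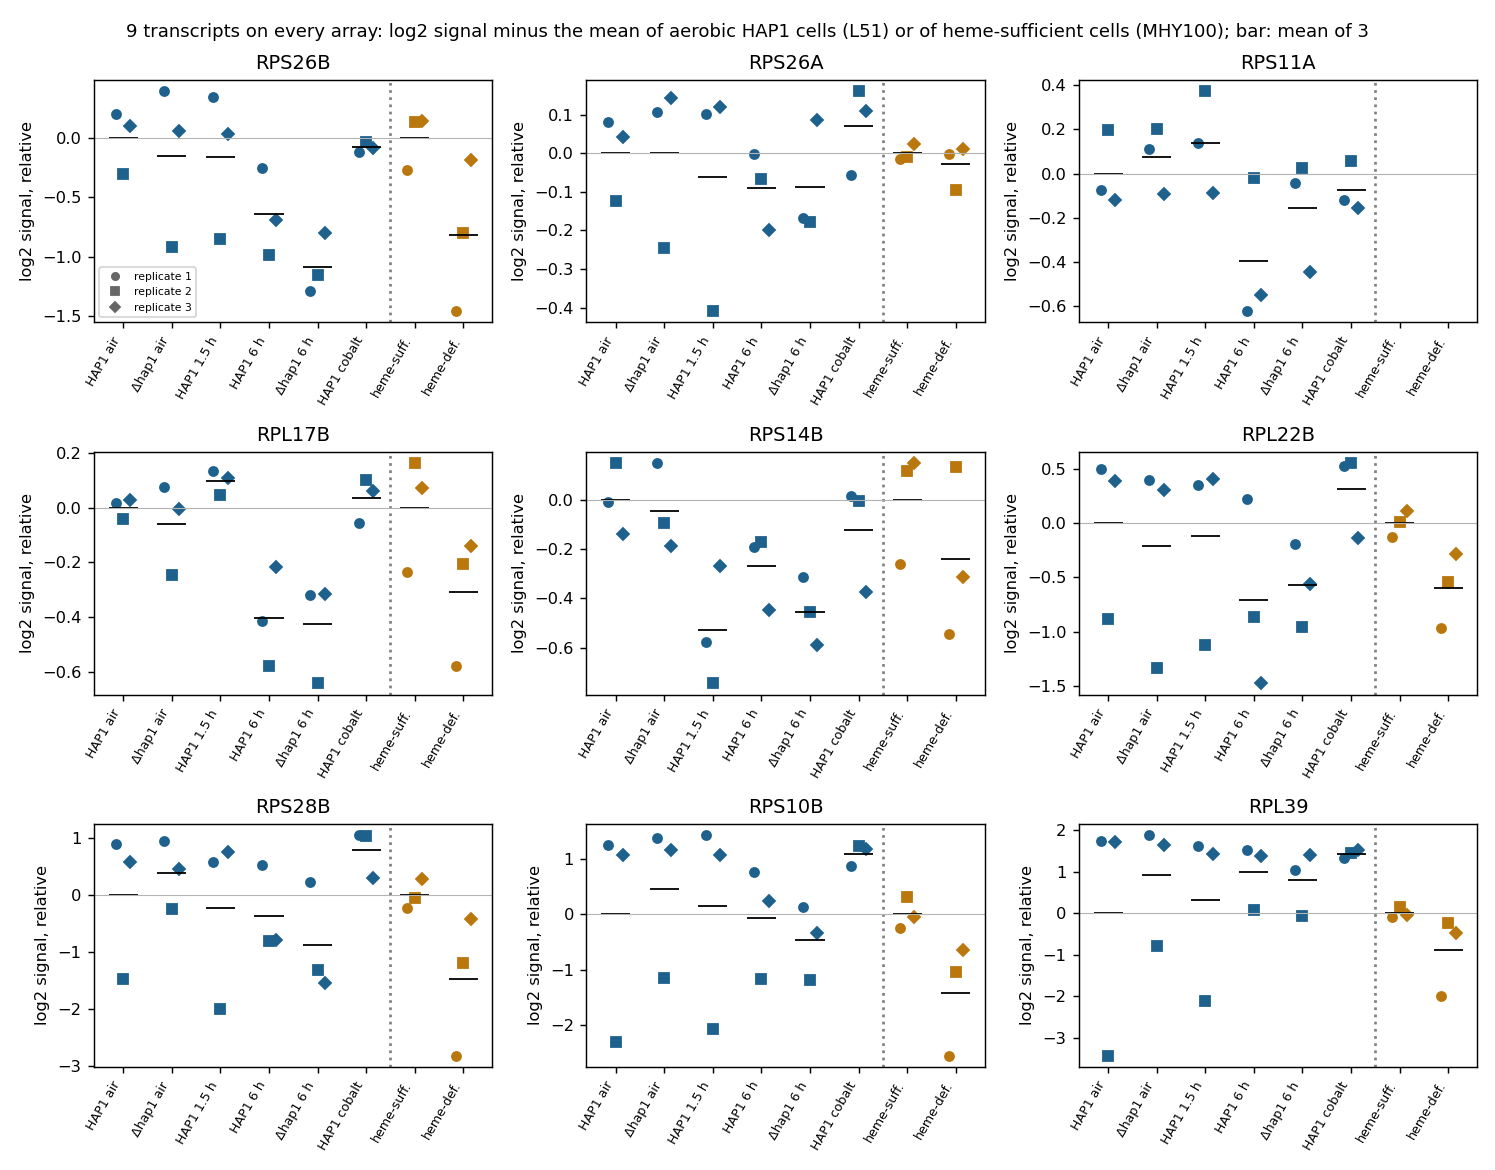
Log2 intensity of 9 ribosomal protein genes on each array, minus the gene's mean in aerobic HAP1 cells (L51) or heme-sufficient cells (MHY100), with bars for the mean of 3 arrays and a marker for each replicate. RPS26B is low in Δhap1 cells at 6 h and in heme-deficient cells while RPS26A stays level, and the spread of RPL39 comes from the low replicate 2 arrays.

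The members with long-known central roles had small fitted differences on the L51 arrays, on which those in the next sentence lie above 14, where the spread between replicates was also small (median SD 0.15). RPL3 and RPL10, near the peptidyl transferase centre of the large subunit, RPL5, which carries the 5S RNA, RPL30, and RPS2, RPS3 and RPS13 of the small subunit had fitted differences between -0.22 and 0.15 in all comparisons. RPL3 (YOR063W), as an example, measured 14.52, 14.46 and 14.51 in aerobic HAP1 cells and 14.25, 14.44 and 14.42 at 6 h. Its 6 h arrays all lay below its aerobic arrays, with a fitted difference of -0.13 (SE 0.15). RPS31 and RPL40A, whose proteins are made as fusions to ubiquitin, lay between -0.08 and 0.22. RPL40B, the other copy of RPL40, lay between -0.38 and 0.48 in the comparisons of conditions and was low on aerobic HAP1 replicate 2 (12.27 against 13.88 and 13.68). RPL25, at the mouth of the exit tunnel, differed by -0.40 in heme deficiency and RPS20 by -0.31 between 1.5 h and 6 h.

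Genes of ribosome assembly had larger differences at 6 h than the genes of the ribosome itself. The 67 measured ribosome biogenesis genes encode factors that process rRNA and assemble subunits. Between 1.5 h and 6 h 43 of them fell and 0 rose, beside 11.7% of all genes called lower. Their median was -1.26 against -0.10 for the ribosomal proteins and -0.23 for all genes. EBP2 (-2.42, adjusted p = 0.0177), NOP16 (-2.35), NOP4 (-2.27) and RRP5 (-2.25) gave the largest falls. Within Δhap1 cells 26 fell at 6 h and 0 rose (median -1.15), beside 8.64% of all genes called lower. The ribosomal protein median there was -0.12 over the 62 members above a mean of 14 and -0.34 over the other 60. The part of brightness in this contrast was not tested. Δhap1 cells at 6 h against aerobic HAP1 cells gave 10 falls (median -0.95), beside 4.61%. In HAP1 cells 2 fell, NOP16 and BRX1 (median -0.77), beside 2.15% of all genes called in either direction. Without the replicate block 0 of the 67 were called between 1.5 h and 6 h and within Δhap1 cells, with quantile scaling 28 and 6 were, and without Δhap1 6 h replicate 3 there were 43 and 0. Between 1.5 h and 6 h the count was 0, 0 and 50 without the arrays of replicate 1, 2 and 3, and within Δhap1 cells it was 0, 27 and 0. At 1.5 h the median was 0.55 with 0 called and 8 genes at an unadjusted p under 0.05, beside 15.7% of all genes. In heme deficiency the median was -0.35, with 0 called and 17 at an unadjusted p under 0.05, beside 18.7% of all genes.

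Genes tied to ribosomal proteins in other ways differed by list. A list of 10 measured genes held dedicated chaperones of ribosomal proteins and other factors of ribosome assembly, such as RRP14 and PNO1. Within Δhap1 cells 5 of the 10 fell (RRP14, YAR1, BCP1, ACL4 and PNO1), beside 10.9% of all genes called. Between 1.5 h and 6 h 3 fell, beside 15.3%. The medians were -1.04 and -1.03. RRP14 gave the largest fall in both, -3.10 between 1.5 h and 6 h and -2.94 within Δhap1 cells (SE 0.62, adjusted p = 0.0173, and 0.103 without Δhap1 6 h replicate 3), and ACL4 (-0.99) encodes the chaperone of Rpl4. Of 12 factors of RNA polymerases I and III, 3 fell within Δhap1 cells (RRN11, RRN9 and RRN3) and 3 between 1.5 h and 6 h (RRN6, RRN7 and RRN11). Without the replicate block or without the replicate 1 arrays, 0 genes of both lists were called in either comparison, and within Δhap1 cells also 0 without Δhap1 6 h replicate 3. The 5 acidic stalk proteins (RPP0, RPP1A, RPP1B, RPP2A and RPP2B), which are ribosomal proteins outside the naming rule, gave 0 calls in each of the 9 comparisons and 0 values with an unadjusted p under 0.05, with medians between -0.16 and 0.04. The 9 ribosome-associated proteins, such as the nascent chain chaperones SSB1 and SSB2, gave 0 calls on the L51 arrays, with medians between -0.21 and 0.04 and at most 1 gene at an unadjusted p under 0.05 in a comparison. Of the measured elongation factors, 8 on the L51 arrays, ANB1, the hypoxic form of eIF5A, alone was called.

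Among 15 measured regulators of ribosomal protein genes RAP1 fell and CRF1 rose at 6 h within Δhap1 cells. IFH1 and RIM15 fell between 1.5 h and 6 h in HAP1 cells. That is 2 of 15 (13.3%) within Δhap1 cells, beside 10.9% of all genes, and 2 of 15 between 1.5 h and 6 h, beside 15.3%. RAP1 measured 11.27, 10.75 and 10.99 in aerobic Δhap1 cells and 10.54, 9.44 and 9.47 at 6 h, without overlap, and fell by 1.18 (SE 0.31, adjusted p = 0.0319). CRF1, known in some strains as a corepressor that competes with Ifh1 for Fhl1, measured 6.84, 6.94 and 6.73 in aerobic Δhap1 cells and 8.84, 8.07 and 7.66 at 6 h. Its 6 h arrays all lay above its aerobic arrays, and it rose by 1.36 (SE 0.27, adjusted p = 0.0137) there and by 1.16 (adjusted p = 0.0237) against aerobic HAP1 cells. IFH1 measured 11.44, 10.91 and 9.87 at 1.5 h and 9.72, 8.56 and 9.88 at 6 h in HAP1 cells, with overlap, and fell by 1.35 (SE 0.38, adjusted p = 0.0351). RIM15, a kinase of the entry into quiescence, fell by 0.94 (adjusted p = 0.0308) in the same comparison. The calls of RAP1, CRF1, IFH1 and RIM15 were lost without the replicate block and without the replicate 1 arrays. Without the block the adjusted p-values were 0.144 (RAP1), 0.151 (CRF1), 0.145 (IFH1) and 0.093 (RIM15). Without Δhap1 6 h replicate 3 the adjusted p was 0.17 for RAP1 and 0.0709 for CRF1, whose dim probe set a filter on low signal left out. With quantile scaling and cyclic loess the adjusted p was 0.0751 and 0.0637 for RAP1, 0.0945 and 0.0989 for IFH1, and 0.143 and 0.161 for RIM15, whose difference was then -0.56 and -0.52. FHL1 differed by -0.34 within Δhap1 cells and SFP1 by -0.21, and neither passed the test.

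The proteins of the mitochondrial ribosome, encoded by other genes that also serve translation, had lower medians than those of the cytosolic one. Of 66 measured on the L51 arrays 5 fell within Δhap1 cells at 6 h (MRPL25, MRPS28, RSM22, MRPL10 and MRP51), 7.58% beside 8.64% of all genes called lower, and 0 rose, with a median of -0.62 beside -0.20 for the cytosolic set. Without Δhap1 6 h replicate 3, 0 were called there. In HAP1 cells at 6 h the median was -0.33 and MRP51 fell, alone among the 66, beside 2.15% of all genes called in either direction. Without the replicate block 9 genes of any kind were called there, against 117 with it. In heme deficiency the median of 67 was -0.50, MRP2 fell by 1.68 (SE 0.30, adjusted p = 0.0397), and 28 had an unadjusted p under 0.05, beside 18.7% of all genes. That call was lost when heme-deficient replicate 2 or any 1 of the heme-sufficient arrays was left out. Each of these medians lay below that of all genes and below that of the cytosolic ribosomal proteins in the same comparison. The differences between the lists were not tested.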

How the data were processed

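RNA of 2 yeast strains was hybridized to Affymetrix arrays, Yeast Genome 2.0 for the 18 L51 arrays and an older type for the 6 MHY100 arrays. Per the labels, the authors scanned images with GCOS and deposited linear intensities computed by RMA. The RMA version is not given in the sources used here. The tables were normalized apart, so tests stay within each. Here log2 was taken, and probe sets were named by the platform annotation. The probe set with the highest mean stood for a gene (20 members on each table had several), and 59 probe sets that match several genes including a member were left out on the MHY100 arrays. L51 arrays were fitted together in limma 3.58.1 (statmod 1.5.0, R 4.3.3) with condition and replicate number as a block, and heme arrays without a block, with Benjamini-Hochberg adjustment over all genes and a threshold of 0.05. The block follows the study's use of same-numbered reference arrays, and 1 heme-sufficient array carries 2 numbers in its labels. Scripts were tested on simulated data. The members and lists were chosen with earlier results of these data known, so a list is described by counts and medians with no test of its own. Members named are those past the threshold, or the 3 lowest and 3 highest values where under 3 passed, the 4 pairs of copies whose changes differed most, and a set list of core genes. Other members are named for an unadjusted p under 0.05, chosen after their values were seen. Promoter and protein sequences were not used here. Alternatives were no block (or a block for heme), only the groups compared, quantile scaling, cyclic loess, an offset of 50, averaged probe sets per gene, leaving out dim probe sets, array weights, an intensity trend, the hybridization round as a block, and leaving out arrays.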

Additional observations from a re-analysis of the deposited data

How the results depend on the processing

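The medians over the members kept their sign under each alternative at 6 h in HAP1 and Δhap1 cells, between 1.5 h and 6 h and in heme deficiency, but not at 1.5 h, with cobalt, for the deletion in air or for the difference of the 6 h changes, and the calls did not keep their number. With the replicate block left out, the members called went from 1 to 0 between 1.5 h and 6 h and in both comparisons of Δhap1 cells at 6 h, and a replicate block for the heme arrays called 2 (RPS10B and RPS22B). Arrays of different replicate numbers shared no hybridization round, so the numbers also mark rounds. They are not shown to pair the cultures. After each condition's mean was subtracted, same-numbered arrays correlated with a median r of 0.56, 0.71 and 0.25 (15 pairs for each number) and a lowest r of -0.09, -0.38 and -0.44, although the closest array of another condition had the same number for 16 of 18 arrays.

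Array weights called 9 members at 1.5 h, 14 at 6 h, 35 and 32 in Δhap1 cells at 6 h (against aerobic HAP1 and Δhap1 cells), 14 between 1.5 h and 6 h, 1 for the difference of the 6 h changes and 6 in heme deficiency. The weights ran from 0.12 to 28.2 and were estimated from the arrays themselves. Between 1.5 h and 6 h, 2 members were called without dim probe sets, with an intensity trend, with an offset of 50, without aerobic HAP1 replicate 2 and without cobalt replicate 2, and 0 with the hybridization round as the block, with quantile scaling, with only the groups compared and without any replicate (0 to 0). In Δhap1 cells against aerobic HAP1 cells there were 4 with an intensity trend, 2 without aerobic HAP1 replicate 2, and 0 with the round as the block, only the groups compared, quantile scaling or without Δhap1 6 h replicate 3 (0 to 5 without each replicate). Within Δhap1 cells there were 6 with only the groups compared, 3 without aerobic HAP1 replicate 2 or cobalt replicate 2, and 0 with cyclic loess, quantile scaling, the round as the block, without the 3 arrays or without Δhap1 6 h replicate 3 (0 to 7). Without the 3 arrays 1 member was called at 1.5 h, and with the round as the block, on 5 arrays, 16 in heme deficiency. The median at 1.5 h was -0.063 with the round as the block and -0.093 (without aerobic HAP1 replicate 2) to 0.019 when arrays of a replicate were left out, and that within Δhap1 cells -0.10 with cyclic loess. The median size of the difference between copies was 0.16 within Δhap1 cells with quantile scaling and 0.15 without Δhap1 6 h replicate 3. In heme deficiency it was 0.27 with the round as the block, 0.30 on the same 5 arrays without a block, and 0.19 to 0.30 without each array.

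The sign of some members' differences turned. The ranges when a replicate or 1 array was left out were, for the deletion in air, -0.253 to 0.017 (RPL36A), -0.308 to 0.145 (RPS19A), -0.049 to 1.249 (RPS23B) and -0.221 to 1.396 (RPL39). For RPS23B they were -0.389 to 0.83 at 1.5 h, -0.316 to 1.287 at 6 h and -0.199 to 1.214 in Δhap1 cells at 6 h against aerobic HAP1 cells, where without aerobic HAP1 replicate 2 alone the 6 h values were -0.184 and -0.177. For RPL39 they were -0.275 to 1.647 and -0.50 to 1.529 in the same 6 h comparisons (-0.145 and -0.34 without that array alone), -0.298 to 2.336 with cobalt, -0.078 to 1.067 between 1.5 h and 6 h, and -1.709 to 0.025 for the difference of the 6 h changes. With cobalt RPS22A ran from -0.009 to 1.652 and RPS28A from -0.12 to 1.763, and RPS22A from -1.485 to 0.044 for the difference of the 6 h changes. Between 1.5 h and 6 h RPL26B ran from -0.165 to 0.482 and RPL22B from -1.001 to 0.063. The values of turned sign came without the replicate 2 arrays or aerobic HAP1 replicate 2, except for RPL22B, where it was the replicate 3 arrays. Without the 3 arrays (replicate 3 of HAP1 cells under cobalt and at both anaerobic times) RPL22B was 0.063 between 1.5 h and 6 h and -0.191 for the difference of the 6 h changes. With array weights the values were 0.028 for RPS19A in the deletion in air, -0.087 for RPS23B at 1.5 h, -0.043 (RPL4B) and -0.107 (RPL15B) within Δhap1 cells, -0.081 for RPL39 with cobalt and -0.01 for RPL26B between 1.5 h and 6 h. With the round as the block RPL15B was -0.05 at 6 h and -0.264 within Δhap1 cells and RPS14B was 0.109 with cobalt, and with the mean of its probe sets RPL7A was -0.029 in heme deficiency. The cause was not tested. The fits without aerobic HAP1 replicate 2 or cobalt replicate 2 alone and that on the same 5 heme arrays were chosen after seeing the data.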
